A study of Mus musculus with 6 samples.

Results

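Long circRNAs were taken from the deposited circRNA table as the exonic entries (not ciRNAs, not intergenic) to which the table gives 8 or more exons. The rule took 1420 of the 10023 entries, which was 15.8% of the 8992 exonic circRNAs. Their back-spliced reads, the reads that cross the joint between the last and the first exon of a circle, were counted in the aortas of 3 ApoE-/- male mice on the chow diet (called a normal diet in the labels) and of 3 on the HFD, all of strain C57BL/6, which were 6 weeks old when the 12 weeks of diet began. Loss of ApoE was thus shared by both diets. The labels do not say whether an aorta sample holds tissue of a single mouse, so p-values measure the spread between these samples. Back-spliced reads totalled 4694, 5621 and 4875 for the HFD and 7585, 7142 and 7476 for the chow diet, here and below in the order of replicates 1, 2 and 3.

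An exonic circRNA forms when the splice donor of a downstream exon is joined to the acceptor of an upstream exon, so that the exons between them close into a ring without free ends. Introns inside the ring are usually spliced out, and a ring of many exons therefore spans a long stretch of its host gene while its RNA is far shorter. Because a short read sees the joint and not the whole ring, the number of exons of a long circle is read from the annotation of its host transcript and not from the reads.

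The long circRNAs held 8 to 64 exons with a median of 10. They spanned 1611 to 885785 bases of the genome with a median of 27810, and 85 spanned at least 100000 bases. Both ends lay on exons of the host transcript named in the table for 1401 of them (GENCODE vM21, GRCm38), and in all 1401 the annotated exons between the ends numbered as many as the table gives. Spliced, these circles would be 528 to 13069 nt long with a median of 1372 nt, which is a median of 5.48% of their span. Circles of 2 to 7 exons had a median span of 7847 bases and a median spliced length of 480 nt. At the border of the rule, the 337 entries of 8 exons had a median span of 18953 bases and 2.54 reads each on average, and the 493 entries of 7 exons had 17419 bases and 3.12 reads each. Reads in a single aorta were found for 80.7% of the entries of 8 exons and 78.1% of those of 7, and for 73.9% and 69.2% at 6 and 5 exons, so that this measure had no step at the border.

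Features other than the exon count are given beside those of circles of 2 to 7 exons, without a test. The intron before the circle had a median of 6779 bases in long circRNAs and 7418 bases in circles of 2 to 7 exons, and the intron after it had 5511 and 5912 bases. The median GC content was 46.5% against 48.1%. The circle began at exon 2 of the host transcript in 384 long circRNAs (27.4%) and in 28.2% of circles of 2 to 7 exons. None of the long circRNAs began at exon 1, and 1 ended at the last exon of the host transcript. Host transcripts had a median of 23 exons against 16, and 577 long circRNAs (41.2%) took more than 50% of them, against 8.35% of circles of 2 to 7 exons. Both values depend on the rule, because a circle of 8 or more exons needs a host with at least as many. At the border, the share that took more than 50% was 28.4% for 8 exons and 26.5% for 7. Coding exons alone made up 1130 of the 1401 circles, the start codon without the stop codon lay in 170, the stop codon without the start codon in 37, and both in 13.

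The exon number of some long circRNAs depended on the transcript. For 59 of them, with 246 reads (7.04% of the reads of all long circRNAs), another annotated transcript joined the same ends with fewer than 8 exons. These 59 included circRNA2736 of Nox4, the long circRNA with the second most reads, which has 8 exons in the transcript named in the table and 6 in another. In 1342 the ends enclosed 8 or more exons in every annotated transcript that holds both, and for 19 no annotated transcript held both.

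Long circRNAs took 9.68%, 10.4% and 10% of the exonic back-spliced reads of the HFD aortas and 10.8%, 9.29% and 10.1% of those of the chow diet aortas. The mean share was 10% ± 0.344 (SD, n = 3) for the HFD and 10.1% ± 0.756 (SD, n = 3) for the chow diet, and the diets overlapped. The 95% Wilson interval of a single aorta was as wide as 8.84% to 10.6% (HFD replicate 1) and covers counting error only. In reads, these shares were 427, 543 and 458 for the HFD and 758, 613 and 695 for the chow diet. After TMM scaling the sums were 497, 551 and 554 normalized reads for the HFD and 700, 559 and 604 for the chow diet, lower for the HFD with no overlap, so the share and the scaled sum differ in this.

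The number of long circRNAs with at least 1 read was 247, 288 and 284 for the HFD and 390, 323 and 355 for the chow diet. The highest HFD number was below the lowest chow diet number, and the same held for the back-spliced reads of the libraries. With each library reduced to the 4694 reads of the smallest by exact expectation, 247.0, 259.8 and 276.9 long circRNAs were expected for the HFD and 287.7, 249.4 and 266.1 for the chow diet. The means were then 261 ± 15 and 268 ± 19.2 (SD, n = 3 each), and the diets overlapped.

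A long circle that was detected had fewer reads, and was less often seen in another aorta, than a shorter circle in the same aorta. In the HFD aortas it had 1.73, 1.89 and 1.61 reads on average against 2.23, 2.52 and 2.18 for 2 to 7 exons, and in the chow diet aortas it had 1.94, 1.90 and 1.96 against 2.54, 2.55 and 2.70. The mean within-aorta difference was -0.617 reads (SD 0.0825), lower in 6 of 6 aortas (two-sided exact sign-flip permutation test, p = 0.0312, the smallest that 6 aortas allow, Benjamini-Hochberg adjusted p = 0.0312 over 4 tests). Against circles of 1 exon the difference was -1.98 reads (SD 0.206), again in 6 of 6 aortas (exact permutation test, adjusted p = 0.0312).

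Of the long circles detected, 40.9%, 39.9% and 36.6% (HFD) and 36.7%, 36.5% and 37.2% (chow diet) also had reads in another aorta. For circles of 2 to 7 exons these shares were 55.5%, 56.2% and 56.2% and then 53.7%, 52.4% and 54.9%. The difference was -16.9 percentage points (SD 1.69), lower in 6 of 6 aortas, and -29.3 points (SD 3.57) against circles of 1 exon, also in 6 of 6 (exact permutation tests, adjusted p = 0.0312 each). A shared circle counts in every aorta that holds it, so the values of the 6 aortas depend on one another. This p therefore does not measure independent replication over the aortas. No long share reached the lowest share of the shorter circles. Without any 1 of the aortas the directions held, but 5 aortas allow no p under 0.0625.

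Over the 6 aortas, 1174 long circRNAs (82.7%) had reads in a single aorta, 121 in 2, 69 in 3, 24 in 4, 24 in 5 and 8 in all 6. A single read in all was the record of 780 (54.9%). At an equal number of reads, 84.6% of long circRNAs with 2 reads had them in a single aorta against 76.8% of circles of 2 to 7 exons, and at 3 reads 68.1% against 57.3%. At 4 reads the shares were 38.3% and 38.0%, at 5 reads 21.9% and 21.9%, and at 6 to 10 reads 12.9% and 7.9%. Among long circRNAs, 19.3% of those with 8 to 9 exons had reads in at least 2 aortas, 18.2% with 10 to 14, 11.9% with 15 to 19, 7.69% with 20 to 29 and 1 of 18 with 30 or more. A name of the catalogue style mmu_circ was given to 247 long circRNAs (17.4%), against 31.4% of circles of 2 to 7 exons.

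The table records long circRNAs in 2 ways. For 1307 it lists exon numbers, and each of these starts at the start of an annotated exon. For the other 113 it gives the flanking introns, and 106 of these start 1 base past the start of an annotated exon. The flanking-intron records held 5.43 reads each on average and never a single read, while the exon-number records held 2.20 reads each and 780 of them had 1 read.

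In 45 pairs of long circRNAs, with the same end and starts 1 base apart, there was 1 record of each kind. Of the 270 combinations of a pair and an aorta, the exon-number record alone had reads in 102, the flanking-intron record alone in 56, neither in 112 and both in 0. Among all 471 exonic pairs, both records had reads in 9 of 2826 combinations. A further 4 pairs had a long and a shorter record, and the exon numbers of both records were equal in 41 of these 49 pairs. Reads of a pair were therefore also summed, which left 1373 long circles, of which 18.6% had reads in at least 2 aortas and 12 had reads in all 6. The class differences in reads and sharing above held when the reads were summed. Why an aorta has reads in one record and not in the other was not tested.

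The effect of the diet was tested for the 246 long circRNAs (17.3%) with reads in at least 2 aortas. A long circRNA with few reads passes this filter only where it is present, and 59 of the 246 had reads in a single diet, the chow diet in 39 and the HFD in 20. No such share over all circRNAs tested is given beside them, so these counts are not read as a property of long circRNAs. The median log2 fold change of HFD against chow diet was -0.02 in long circRNAs and -0.18 in all 2564 circRNAs tested. With diets at 0 reads set to a floor of 3 reads per library, the median in long circRNAs was 0. The fitted value was lower on the HFD in 125 of the 246 (50.8%) and in 52.7% of all circRNAs tested.

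DECs were called with edgeR's quasi-likelihood test where the unadjusted p was under 0.05 and the log2 fold change above 1 in size. By this rule 11 of the 246 long circRNAs were called, which was 4.47% beside 4.06% of all circRNAs tested. Of these, 4 were higher on the HFD (1.63% beside 1.29% of all tested) and 7 were lower (2.85% beside 2.77%). None of the 246 had a Benjamini-Hochberg adjusted p under 0.05 in edgeR, where the smallest was adjusted p = 0.58, beside 0.156% of all circRNAs tested. An unadjusted p under 0.05 was reached by 11 in edgeR, 1 in DESeq2 and 8 in limma, none of them with an adjusted p under 0.05 by DESeq2 or limma. The shares at the DEC criteria are near those of all circRNAs tested. The counts by unadjusted p were not set beside such shares and are not read as a result about long circRNAs. With the reads of pairs summed, 12 of 255 long circles were called (4.71% beside 3.40% of all tested), and 8 of the 11 calls were among the 12. The 4 others, chosen after their values were seen, had no HFD read, and summed chow diet reads of 0, 5 and 5 (circRNA3964 of Itga8), 3, 3 and 4 (circRNA4 of Uty), 7, 0 and 3 (circRNA5780 of Arhgap32) and 3, 4 and 2 (circRNA5221 of Nox4). Reads in a single diet were found in 10 of the 11, likewise without a share over all calls beside it. The calls numbered 7, 6 and 5 without HFD replicate 1, 2 or 3 and 5, 5 and 8 without chow diet replicate 1, 2 or 3. Of these, 5, 5 and 5 and then 5, 2 and 2 were among the 11.

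The call with reads in both diets was circRNA2736, from Nox4, which encodes an NADPH oxidase subunit that makes hydrogen peroxide in the vessel wall. Its 93 reads were 9, 9 and 7 HFD reads and 20, 20 and 28 chow diet reads, and it was detected in all 6 aortas. The diets did not overlap, with all 3 HFD aortas low. Normalized reads averaged 9.36 ± 1.02 for the HFD and 20.4 ± 3.46 for the chow diet (SD, n = 3; two-sided exact permutation test, p = 0.1, which is as low as 3 aortas against 3 allow). The log2 fold change in edgeR was -1.11 (standard error 0.50, Benjamini-Hochberg adjusted p = 0.58). Without HFD replicate 3 it was -0.98 and without chow diet replicate 3 it was -0.96, outside the criteria. The circle runs from 87314065 to 87339017 on the forward strand of chromosome 7 and is recorded by its flanking introns.

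The called circles of Tbck, Esyt2, Adcy5, Sorbs2 and Cped1 had reads on the chow diet alone, while other long circles of Tbck, Sorbs2 and Cped1 had HFD reads. mmu_circ_0010463 of Tbck, a kinase-like gene with a TBC domain, joins exons 4 to 23 (chromosome 3, 132705513 to 132774596) and had 0 HFD reads and 5, 3 and 6 chow diet reads. Its chow diet mean was 1.2-fold above a floor of 3 reads per library for the HFD, which leaves the spread of the chow diet aside. circRNA4416 of Esyt2, an extended synaptotagmin that tethers the endoplasmic reticulum to the plasma membrane, had 0 HFD reads and 0, 7 and 6 chow diet reads. The diets overlapped in circRNA4416, so no fold is given for it. The first had reads in every chow diet aorta, and the second had none in chow diet replicate 1. Both passed the filter through the chow diet alone, so their difference between the diets is not a test and no permutation p is given. mmu_circ_0006232, exons 4 to 12 of the adenylyl cyclase gene Adcy5 (chromosome 16, 35267180 to 35283609), had 2, 3 and 3 chow diet reads and no HFD read, with both diets within the floor, so no fold is given. Its call was lost when any of the 6 aortas was left out, in DESeq2, with library size alone and without a filter. circRNA4579 of Sorbs2, an adaptor of the actin cytoskeleton, had 0, 3 and 5 reads on the chow diet, while its partner circRNA6980 had 3, all in HFD replicate 1. For the sum of both, the log2 fold change was -0.91 (standard error 1.41, edgeR) and the criteria were not met. The call of circRNA4579 was also lost without any of the HFD aortas and in DESeq2 and limma. circRNA3619 of Cped1, named after its values were seen as the eleventh call, had 0, 3 and 5 reads on the chow diet and was also called with its partner circRNA2613 summed.

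Of the 4 calls higher on the HFD, circRNA7942 of Myo9a, an unconventional myosin, had 0, 2 and 4 HFD reads and no chow diet read. HFD replicate 1 was at 0, so that the diets overlapped. The circle passed the filter through the HFD alone, so no permutation p is given. Its call was lost when any of the chow diet aortas was left out, in DESeq2, in limma and without a filter. mmu_circ_0014479, exons 2 to 15 of the transcription termination factor gene Pcf11, had 2, 4 and 0 HFD reads and 0 chow diet reads. Its partner circRNA2434 had 0, 0 and 3 for the HFD and 6, 2 and 0 for the chow diet, and with both summed the log2 fold change was 0.51 (standard error 1.04, edgeR) and the criteria were not met. The call of mmu_circ_0014479 was also lost when any of the chow diet aortas was left out, in DESeq2, in limma and without a filter.

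A pair from Pde4a, which encodes a cyclic AMP phosphodiesterase, shows how a divided record changes the reading. Both records join exons 3 to 13 on chromosome 9 and end at 21205413. circRNA2158, which starts at 21192395, had 0, 0 and 0 HFD reads and 5, 6 and 0 chow diet reads and was called lower on the HFD. circRNA6022, which starts at 21192396, had 3, 5 and 9 HFD reads and 0, 0 and 7 chow diet reads. In edgeR it was not called with all aortas, but it met the criteria as higher on the HFD without chow diet replicate 3, and in limma with all aortas (1.89 on the log2 scale). No aorta had reads in both records. Summed, the pair had a log2 fold change of 0.30 (edgeR, standard error 0.73, adjusted p = 0.95) and the circle was not called.

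The 8 long circRNAs with the most reads held 363 of the 3494 reads (10.4%). circRNA720, exons 2 to 11 of Ttc3, the gene of a ubiquitin ligase with tetratricopeptide repeats (chromosome 16, 94383912 to 94403368, 911 nt spliced), led with 108 reads. It had 9, 23 and 4 HFD reads and 28, 22 and 22 chow diet reads. HFD replicate 2 lay within the chow diet values and the other HFD aortas below them. Normalized reads were 12.9 ± 9.48 and 21.7 ± 3.65 (SD, n = 3 each). In edgeR the log2 fold change came to -0.73 (standard error 0.45, adjusted p = 0.58), and without HFD replicate 2 it was -1.55 and met the criteria. It was -0.29 without HFD replicate 3, -0.49 with library size alone and -0.54 in DESeq2.

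Ubn2, a subunit of a histone chaperone complex, gave circRNA1250, which joins exons 2 to 14 (chromosome 6, 38440455 to 38491931, 3147 nt spliced). It had 0, 2 and 3 HFD reads and 6, 6 and 9 chow diet reads, and the diets did not overlap (exact permutation test, p = 0.1). The fitted log2 difference in edgeR was -1.68 (standard error 1.05, adjusted p = 0.58), outside the criteria because its unadjusted p was 0.11. It met them in limma (-1.66), and in edgeR it was -1.12 without HFD replicate 1 and -2.38 without HFD replicate 3. mmu_circ_0014022, from the pseudogene Nlrp5-ps, had 7, 6 and 3 HFD reads and 10, 4 and 4 chow diet reads. circRNA2031, from the muscle kinase gene Speg, had 6, 5 and 2 HFD reads and 6, 3 and 3 chow diet reads. In both, the diets overlapped, with log2 fold changes of 0.13 (standard error 0.85) and 0.41 (standard error 0.98). The value of circRNA2031 was 0.09 without HFD replicate 1 and 0.82 without chow diet replicate 1.

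circRNA2604, from the aspartate beta-hydroxylase gene Asph, had 0, 4 and 5 HFD reads and 4, 11 and 3 chow diet reads. circRNA2431, from Tacc1, a centrosome-associated gene, had 3, 11 and 3 HFD reads and 4, 3 and 2 chow diet reads, and its start lay on no annotated exon start. HFD replicate 2 alone stood above the chow diet values of circRNA2431. Neither was called, with log2 fold changes of -0.67 (standard error 0.98) and 1.15 (standard error 0.98) in edgeR. Without HFD replicate 2 the value of circRNA2431 was 0.32.

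The long circRNAs came from 851 host genes. A single long circRNA was recorded in 567 of these genes and 5 or more in 28. Start or end was shared with another long circRNA in 549 (38.7%). Nox4 had the most, 16 long circRNAs with 152 reads, which was 65.5% of the 232 exonic back-spliced reads of the gene. Ltbp1 had 13 with 36 reads (28.6% of its exonic reads) and Dmd 12 with 24 reads (29.3%).

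The Nox4 circles used 4 starts, with records 1 base apart joined, and 5 ends, and 6 of them ended at 87339017, with 116 of the 152 reads. The 16 circles together had 19, 17 and 13 HFD reads and 33, 30 and 40 chow diet reads. The diets did not overlap in this sum, of which circRNA2736 holds most. Apart from circRNA2736, the circle with the most reads was mmu_circ_0014445, exons 3 to 11, with 0, 1 and 6 HFD reads and 0, 4 and 7 chow diet reads. It overlapped between the diets, with a log2 fold change of -0.26 (standard error 1.15, edgeR). Exon 3 has starts at 87295784 and 87295788 in the annotation, and circles began at both, 5 with 25 reads at the first (and 2 with 9 reads 1 base past it) and 4 with 13 reads at the second (and 1 with 4 reads 1 base past it). The joints of 3 circles that end at 87339017 are printed 5′ to 3′ to show the shared end and the 3 starts. The last 20 bases of the circle are in lower case, the first 20 in capitals, and for a flanking-intron record the start is that of the annotated exon.
circRNA2736 (chr7:87314065-87339017, forward strand, 93 reads): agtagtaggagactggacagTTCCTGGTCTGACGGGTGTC
circRNA2734 (chr7:87295785-87339017, forward strand, 7 reads): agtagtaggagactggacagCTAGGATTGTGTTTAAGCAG
circRNA1131 (chr7:87295788-87339017, forward strand, 7 reads): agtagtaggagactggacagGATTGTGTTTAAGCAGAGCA

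Ltbp1 encodes a matrix protein that binds latent TGF-beta. Its long circles gave 5, 5 and 2 HFD reads and 12, 7 and 5 chow diet reads, which meet at 5 reads. Of the 13, 5 began at exon 12, 3 at exon 15, and 4 ended at 75327322. circRNA610, exons 12 to 25, had 0, 0 and 1 HFD reads and 5, 0 and 2 chow diet reads, and its partner circRNA7043 had 3 reads in HFD replicate 1. circRNA612, exons 15 to 25, had 0 HFD reads and 1, 4 and 1 chow diet reads, and was not called in edgeR. It passed the filter through the chow diet alone, so its separation is not a test and no permutation p is given. The joints of circRNA610, circRNA612 and circRNA609 show how a common start and a common end were each joined to different partners.
circRNA610 (chr17:75273867-75327322, forward strand, 8 reads): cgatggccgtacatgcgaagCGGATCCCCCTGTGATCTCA
circRNA612 (chr17:75282328-75327322, forward strand, 6 reads): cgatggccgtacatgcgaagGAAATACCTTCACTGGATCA
circRNA609 (chr17:75273867-75296343, forward strand, 5 reads): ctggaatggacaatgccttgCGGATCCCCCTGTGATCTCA

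Dmd encodes dystrophin, which links the actin cytoskeleton of muscle cells to the matrix. Its 12 long circRNAs had 6, 5 and 0 HFD reads and 4, 1 and 8 chow diet reads, and 9 of the 12 had reads in a single aorta. circRNA35, exons 10 to 18 (chromosome X, 83664048 to 83755500), had 0 HFD reads and 1, 0 and 5 chow diet reads. The 2 longest spans of all long circRNAs were in Dmd. circRNA6139, exons 2 to 44, covered 885785 bases with a spliced length of 6413 nt and had 3 reads in HFD replicate 1 alone. circRNA7152, exons 5 to 44, covered 647354 bases and had 2 reads in HFD replicate 2 alone. The next longest, circRNA4310 of Csmd1, a gene of CUB and sushi domains, covered 439181 bases with 2 reads in chow diet replicate 2.

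The circles with the most exons had 1 read each. circRNA4954 joined exons 2 to 65 of Birc6, which encodes a large ubiquitin-conjugating inhibitor of apoptosis, as 64 exons with a spliced length of 13069 nt, and was read in chow diet replicate 3. circRNA6369, also of Birc6, held 59 exons and was read in HFD replicate 1, and circRNA7346 of the lipoprotein receptor gene Lrp1 held 53 and was read in HFD replicate 2. The shortest spans were 1611 bases in circRNA2616 of the phospholipase gene Plcg1, 2460 bases in circRNA3409 of the receptor kinase gene Grk2 and 2649 bases in circRNA6690 of BC037034, with 2, 2 and 1 reads. At 1 or 2 reads in 1 library, no comparison between the diets can be made for them.

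Smooth muscle is the main cell type of the aortic media. Of 30 contractile and cytoskeletal genes of smooth muscle, 23 had exonic circles and 10 had long ones, 43 long circRNAs with 116 reads, most of them from Utrn, Itga8 and Dmd. Cnn1, Des, Lmod1, Myh9, Tagln, Tpm1 and Tpm2 had no exonic circle, which for markers such as Tagln tells of circles and not of the level of the mRNA. Summed over the long circRNAs, normalized reads were 12.8, 20.3 and 8.47 for the HFD and 29.6, 18.2 and 22.6 for the chow diet and overlapped. Summed over all exonic circles of these genes they were 94.3, 104 and 72.6 against 181, 112 and 163, lower for the HFD with no overlap. This separation rests on the TMM scaling. As shares of all back-spliced reads, computed after these values were seen, they were 1.73%, 1.83% and 1.23% against 2.58%, 1.72% and 2.5%, and overlapped at chow diet replicate 2. Fewer smooth muscle cells and less circular RNA per cell cannot be told apart in whole aorta. Of the 8 long circRNAs tested, 0 were called in edgeR, and 0 had an unadjusted p under 0.05 in edgeR, DESeq2 or limma. Over all circRNAs tested, 4.06% were called. The calls in lists this small, here and below, are therefore not read as a result about their members. mmu_circ_0002037 of Utrn, the dystrophin-related utrophin, joins exons 27 to 50 and had 1, 4 and 1 HFD reads and 12, 0 and 1 chow diet reads, so chow diet replicate 1 holds most of its reads. circRNA3963 of Itga8, an integrin of smooth muscle, had 0, 1 and 2 against 0, 5 and 3, and its partner circRNA2628 had 5 reads in chow diet replicate 1. The 7 long Itga8 circles together, a sum outside the plan, held 23.9% of the 138 exonic reads of the gene. They had 0, 1 and 2 HFD reads and 10, 11 and 9 chow diet reads, not scaled for depth, which do not overlap. No share of host genes with such a separation is given beside it, so it is not read as a result about Itga8. The summed pair of circRNA3964 was among the calls above.

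Genes of the matrix and basement membrane, other than Ltbp1, gave few long circles. The 41 genes had 23 long circRNAs with 51 reads, of which Ltbp1 held 36. Normalized reads were 5.82, 8.11 and 4.84 for the HFD and 14.8, 11.9 and 4.35 for the chow diet, and overlapped at chow diet replicate 3. None of the 6 tested was called in edgeR, with 0 at an unadjusted p under 0.05 there, in DESeq2 or in limma. Genes that handle cholesterol had 3 long circRNAs with 4 reads, and none could be tested. circRNA8672 of the cholesterol transporter gene Abca1, 27 exons, had 2 reads in HFD replicate 3, and circRNA5448, 9 exons, had 1 read in chow diet replicate 3. Over all exonic circles of the cholesterol list, normalized reads were 24.5, 35.5 and 30.3 for the HFD and 18.5, 23.7 and 11.3 for the chow diet, higher for the HFD with no overlap, and Abca1 held the most of these reads (82).

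Markers of other cell types gave few long circles. The 21 skeletal and cardiac muscle genes had 2, both from the giant sarcomere gene Ttn and both read in HFD replicate 3 alone, circRNA8789 with 6 reads and circRNA8788 with 1. Adipocyte markers had 4 with 9 reads, of which circRNA9041 of the fatty acid receptor gene Cd36 had 6, again all in HFD replicate 3, and circRNA3040 of Acaca had 1 in chow diet replicate 2. HFD replicate 3 therefore stood apart in these circles of Ttn and Cd36, which hold few reads. Over all exonic circles of the skeletal and cardiac list, normalized reads were 2.33, 1.01 and 9.68 for the HFD and 6.47, 1.82 and 3.48 for the chow diet. There HFD replicate 3 was the highest. In the adipocyte list it was slightly below chow diet replicate 2 after TMM scaling. As a share of all back-spliced reads it was the highest in that list too, at 0.656% beside 0.602% in chow diet replicate 2. Over all exonic circles of the adipocyte list, normalized reads were 26.8, 18.3 and 38.7 for the HFD and 24.0, 39.2 and 32.2 for the chow diet, and Acly, Adipoq, Cidec, Lpl, Pcx, Plin1 and Ucp1 were at 0. Leukocyte markers had 8 long circRNAs with 10 reads, led by Lyst with 3, where circRNA84 had 2 reads, as did circRNA13 of Dock11, both in chow diet replicate 1. Endothelial markers had 2 with 3 reads, circRNA5330 of Vwf with 2 in chow diet replicate 3 and circRNA6288 of Pecam1 with 1 in HFD replicate 1. Schwann cell and neuronal markers had 0. None of these circles had reads in at least 2 aortas, so none was tested, and their part in the diet comparison was not tested.

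The lists of genes of general cell functions held more long circles than those of the cell type markers just given, without a test. Membrane trafficking genes had 33 long circRNAs with 95 reads, led by Picalm, a clathrin assembly gene, with 27. mmu_circ_0010827 of Lrba, exons 5 to 22, had 4, 2 and 0 HFD reads and 4, 6 and 6 chow diet reads (log2 fold change -1.06, standard error 1.09, edgeR), and circRNA1137 of Picalm, exons 2 to 12, had 0, 2 and 3 against 5, 3 and 2. Both pairs of groups overlapped. Normalized reads of the list were 10.5, 14.2 and 10.9 for the HFD and 23.1, 21.0 and 13.0 for the chow diet, overlapping at chow diet replicate 3. Of the 7 tested, 0 were called, with 0 at an unadjusted p under 0.05 in edgeR, DESeq2 or limma.

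The 24 cytoskeletal linker and motor genes had 33 long circRNAs with 73 reads. The Myo9a circle above was the edgeR call among 7 tested, beside 4.06% of all circRNAs tested. In DESeq2 and limma, 0 had an unadjusted p under 0.05. Normalized reads of the 33 long circRNAs were 11.6, 12.2 and 20.6 for the HFD and 12, 5.47 and 13 for the chow diet and overlapped. As shares of back-spliced reads they were 0.213%, 0.213% and 0.349% against 0.171%, 0.084% and 0.201%, higher for the HFD with no overlap. Over all exonic circles of these genes, normalized reads were 27.9, 31.4 and 36.3 against 44.3, 37.4 and 40.9, lower for the HFD with no overlap, while the shares overlapped, so the order of the diets depends on the scaling and on the circles taken. mmu_circ_0009400 of the kinesin gene Kif16b, exons 4 to 12, had 2, 0 and 3 HFD reads and 1, 0 and 4 chow diet reads. Ubiquitin ligase and deubiquitinase genes had 41 with 63 reads, led by Birc6 with 13, and 0 of 3 tested were called, with 0 at an unadjusted p under 0.05 in edgeR, DESeq2 or limma. Their normalized reads were 12.8, 11.2 and 18.2 for the HFD and 8.31, 9.12 and 6.09 for the chow diet, with no overlap and the HFD higher. Without Birc6, a choice made after these values were seen, they were 8.15, 6.09 and 16.9 against 7.39, 9.12 and 4.35 and overlapped. Over all exonic circles of these genes the values were 65.2, 53.8 and 69.0 against 80.4, 66.6 and 63.5 and overlapped. circRNA3573 of Usp47 had 0, 2 and 0 against 0, 2 and 1 reads, and mmu_circ_0006800 of Ubr2 had 1, 1 and 0 against 1, 0 and 2.

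Chromatin regulator genes had 34 long circRNAs with 56 reads, led by the histone methyltransferase gene Kmt2c with 10, and 0 of 5 tested were called, with 0 at an unadjusted p under 0.05 in edgeR, DESeq2 or limma. mmu_circ_0001336 of Nsd2 had 0, 1 and 0 HFD reads and 4, 0 and 1 chow diet reads, and mmu_circ_0012469 of Kmt2c, exons 29 to 43, had 0, 2 and 0 against 3, 0 and 0. Arhgap32, which held 421 exonic back-spliced reads in all, gave 10 of them as long circRNAs, a pair that joins exons 4 to 18 on chromosome 9. circRNA2637 had 7 reads in chow diet replicate 1 and circRNA5780, 1 base away, had 3 in chow diet replicate 3. Neither was tested alone, and with the pair summed the circle met the criteria (edgeR, adjusted p = 0.61), with no fold given at this depth.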

How the data were processed

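Per the labels, cutadapt and TopHat were used. The study's methods name CIRI and CIRCexplorer for circRNA assembly, TopHat-Fusion for back-splices and depletion of ribosomal RNA, and both methods and labels name RNase R. The deposited count is the back-spliced reads of each circRNA in each aorta. The deposited signal (SRPBM) is that count scaled by a depth of the library. No source states the build; exon starts match GENCODE vM21 on GRCm38. The table's own fold changes (infinite where a diet has no reads), p-values and q-values were not used. After TMM normalization, all 2564 circRNAs with reads in at least 2 aortas were fitted in edgeR 4.0.16 (quasi-likelihood, R 4.3.3), with Benjamini-Hochberg adjustment over all of them. Normalized reads are counts over the effective library size, times its mean. For a single value, the test was an exact permutation test, two-sided. Libraries of the same diet varied beyond counting error (chi-square over its degrees of freedom, 2.24 to 3.35), and intervals and floors cover counting error alone. The fits were tested on simulated data. Named circRNAs are the 8 with most reads, the first 10 calls by p (8 are described), the 3 with most exons, longest and shortest spans, those of the 3 genes with most, and 2 per gene list. Alternatives were DESeq2 1.42.0, limma 3.58.1 on log2 SRPBM plus its smallest non-zero value (13.6), other normalizations, filters and exon limits, a replicate block, summed records and each aorta left out. Leaving out flanking-intron records, or members with fewer exons in another isoform, was chosen after seeing the data. Members and lists were chosen with earlier results of these data known.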

Additional observations from a re-analysis of the deposited data

How the results depend on the processing

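The diet counts depended on the processing, and the cause was not tested except where fewer circRNAs or aortas remained. Against 11 long circRNAs at the DEC criteria (4 higher and 7 lower on the HFD), DESeq2 gave 1 (0 higher, 1 lower), limma 7 (1 higher), library size alone 7 (3 lower), no filter 6 (2 higher, 4 lower), reads in at least 3 aortas 7 (2 higher), at least 10 reads 4 (0 higher, 4 lower), at least 10 exons 4 (1 higher, 3 lower) and no flanking-intron records 7 (4 lower). Leaving out each aorta gave 5 to 8, with 0 to 2 higher and 3 to 7 lower. A replicate block, which treats equal replicate numbers as paired, gave 2 (0 higher, 2 lower). After removing the diet means, aortas of equal number had correlations of -0.139, -0.134 and -0.041, and those of unequal number -0.054 to 0.169. With so few reads per circRNA, these values cannot decide whether the numbers pair the aortas. The median log2 fold change of -0.02 became 0.20 in DESeq2, 0.19 with library size alone, -0.68 at 10 reads, -0.37 with reads in 3 aortas, -1.77 without a filter, 0.18 without members that have fewer than 8 exons in another isoform, and -0.24 to -0.11 with an aorta left out. Library size alone moved the median of all tested from -0.18 to 0.04. That median was 0.03 in DESeq2, -0.25 at 10 reads, -0.27 with reads in 3 aortas and -1.09 without a filter. At 10 reads, in 3 aortas and without a filter, long circRNAs thus had the lower median, unlike in the main fit. With an aorta left out, the median of all tested was -0.24 to -0.1, close to that of long circRNAs in each of these fits. The gap of the main fit was therefore not seen when any of the aortas was left out. Without reduction to equal depth, the difference in long circRNAs detected was -83 and not -6.54. At equal depth it ranged from -15.7 (without chow diet replicate 2) to 3.45 (without chow diet replicate 1) with an aorta left out. The lower reads per circle and sharing of long circRNAs kept their direction in all 9 alternatives. With an aorta left out, where p cannot go below 0.0625, they ranged from -0.64 to -0.591 and from -2.05 to -1.94 reads, and from -16.5 to -15.1 and from -30 to -26.7 percentage points, against 2 to 7 exons and 1 exon. The Nlrp5-ps circle turned to -0.12 without HFD replicate 1 or chow diet replicate 2 and -0.11 without chow diet replicate 3 (0.71 without chow diet replicate 1). The Asph circle turned to 0.06 without chow diet replicate 2 (-1.28 without HFD replicate 3), and circRNA2158 of Pde4a to 0.30 when summed with its partner. circRNA2736 of Nox4 left the criteria in DESeq2 (-0.92) and with library size alone (-0.88), and its adjusted p ranged from 0.44 to 1. Of the other calls named, that of Tbck held in all 15 alternatives, Esyt2 was lost in 2 of 12, circRNA2158 of Pde4a was lost or turned in 3 of 12, and Myo9a was lost in 7 of 11, Adcy5 in 10 of 14, Pcf11 in 8 of 11 and Sorbs2 in 9 of 11. Of the 246 long circRNAs tested, 205 had fewer than 10 reads.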
